A study of Arabidopsis thaliana with 12 samples.

Results

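The genes described here encode the mitochondrial pyruvate dehydrogenase (PDH) complex, the enzymes of the tricarboxylic acid (TCA) cycle and their cytosolic and peroxisomal isoforms in *Arabidopsis thaliana*. A list of 41 loci was taken, and the probe sets of each locus were found through the annotation of the array. Of the 41 loci, 21 had a named probe set, out of 13789 loci so named and 22746 probe sets tested in the whole series. The other 20 loci dropped out and were not analysed here. They hold all loci of the shared E3 subunit, citrate synthase, aconitase, fumarase and the malate dehydrogenases, so the values below cover PDH E1 (1 of 3 loci), PDH E2 (3 of 3), NAD-dependent isocitrate dehydrogenase (3 of 5), NADP-dependent isocitrate dehydrogenase (3 of 3), 2-oxoglutarate dehydrogenase (4 of 4), succinyl-CoA ligase (3 of 3) and succinate dehydrogenase (4 of 6).

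Transcripts of whole siliques were profiled with 12 ATH1 arrays from Affymetrix, 3 biological replicates for each of 4 groups. AtHb1 plants (LeB4::AtHb1 in Col-0, T3 generation) overexpress the non-symbiotic hemoglobin *AtHb1* under the seed-specific LeB4 promoter, so the transgene acts mainly in seeds while silique wall and seed RNA were extracted together, and the arrays represent a single transgenic line. Intact plants 45 days after germination stood in darkness for 1 hour in 10.5% oxygen (AtHb1 hypoxia and WT hypoxia) or 21% oxygen (AtHb1 control and WT control), and WT was untransformed Col-0. Siliques were 11 to 12 days past pollination, in mid seed maturation, and 70 to 80 of them were pooled for a replicate.

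PDH joins glycolysis to the TCA cycle by turning pyruvate into acetyl-CoA. The cycle then oxidises acetyl-CoA and hands electrons to the respiratory chain, with succinate dehydrogenase serving both as a cycle enzyme and as complex II of that chain. In maturing seeds the same reactions also supply carbon skeletons, such as 2-oxoglutarate for amino acids, and oxygen is known to become limiting inside siliques and seeds.

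The targeted gene bore out the labels. *HB1* (*AtHb1*, AT2G16060) had log2 signals of 10.65, 10.38 and 11.12 in AtHb1 hypoxia, 10.48, 12.06 and 11.93 in AtHb1 control, 9.06, 9.07 and 9.14 in WT hypoxia, and 6.14, 5.99 and 5.88 in WT control. Hypoxia raised *ADH1*, an alcohol dehydrogenase of fermentation, by 2.12 on the log2 scale in AtHb1 (adjusted p = 1.83e-09) and by 2.87 in WT (adjusted p = 5.53e-11). Arrays of a group correlated at 0.993 or more over all probe sets, and array medians lay between 7.45 and 7.61. Medians were 7.60 to 7.61 in AtHb1 hypoxia, above all other arrays, and 7.45 to 7.48 in WT control, below all others. AtHb1 control had 7.51 to 7.55 and WT hypoxia 7.49 to 7.58, so the levels partly followed the groups. For the actin, GAPDH and ubiquitin controls, the signal at the 3′ end less that at the 5′ end, a sign of RNA integrity and of labelling, averaged 2.43 (lowest to highest array 2.34 to 2.50) in AtHb1 hypoxia, 2.19 (2.13 to 2.27) in AtHb1 control, 1.77 (1.70 to 1.85) in WT hypoxia and 1.69 (1.61 to 1.78) in WT control on the log2 scale. The genotypes did not overlap in this measure, and neither did AtHb1 hypoxia and AtHb1 control. Between the 2 AtHb1 groups actin was apart (3.83 to 3.91 under hypoxia, 3.17 to 3.38 in control), while GAPDH and ubiquitin overlapped. RNA quality thus cannot be told apart from genotype in either comparison of AtHb1 with WT, nor from hypoxia in AtHb1. The interaction carries the same limit.

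All changes in the 21 genes were small. The steepest was a log2 fold change of -0.62, a level 1.53-fold lower, and no gene passed both an adjusted p under 0.05 and a 2-fold change. That stricter call took 2.17% of all probe sets in AtHb1 control against WT control, 1.74% in AtHb1 hypoxia against WT hypoxia, 1.12% in AtHb1 hypoxia against AtHb1 control, 1.82% in WT hypoxia against WT control and 2.0% for the interaction, the difference between the hypoxia responses of the genotypes. Every 95% confidence interval over the 4 pairwise comparisons lay between -0.82 and 0.69, so a 2-fold change lay outside each of them. At an adjusted p under 0.05 alone (limma, Benjamini-Hochberg over all probe sets), 14 of the 21 genes changed in at least 1 of the 4 pairwise comparisons, against 59.7% of all probe sets, and 7 changed in none. Signals come from bulk siliques, in which fewer cells of a type and less RNA per cell cannot be told apart.

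Genotype carried more of the variation of these genes than hypoxia did. Of their summed squared deviations from the mean of the 12 arrays, genotype took 51.6% (40.7% over all probe sets), treatment 7.93% (27.0%), the interaction 17.2% (13.0%) and replicates 23.3% (19.3%). The group with the highest mean was AtHb1 hypoxia for 10 genes (31.0% of all probe sets), AtHb1 control for 1 (18.4%), WT hypoxia for 1 (17.1%) and WT control for 9 (33.4%). The plot of all genes by array shows these blocks.

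**Figure D1:**
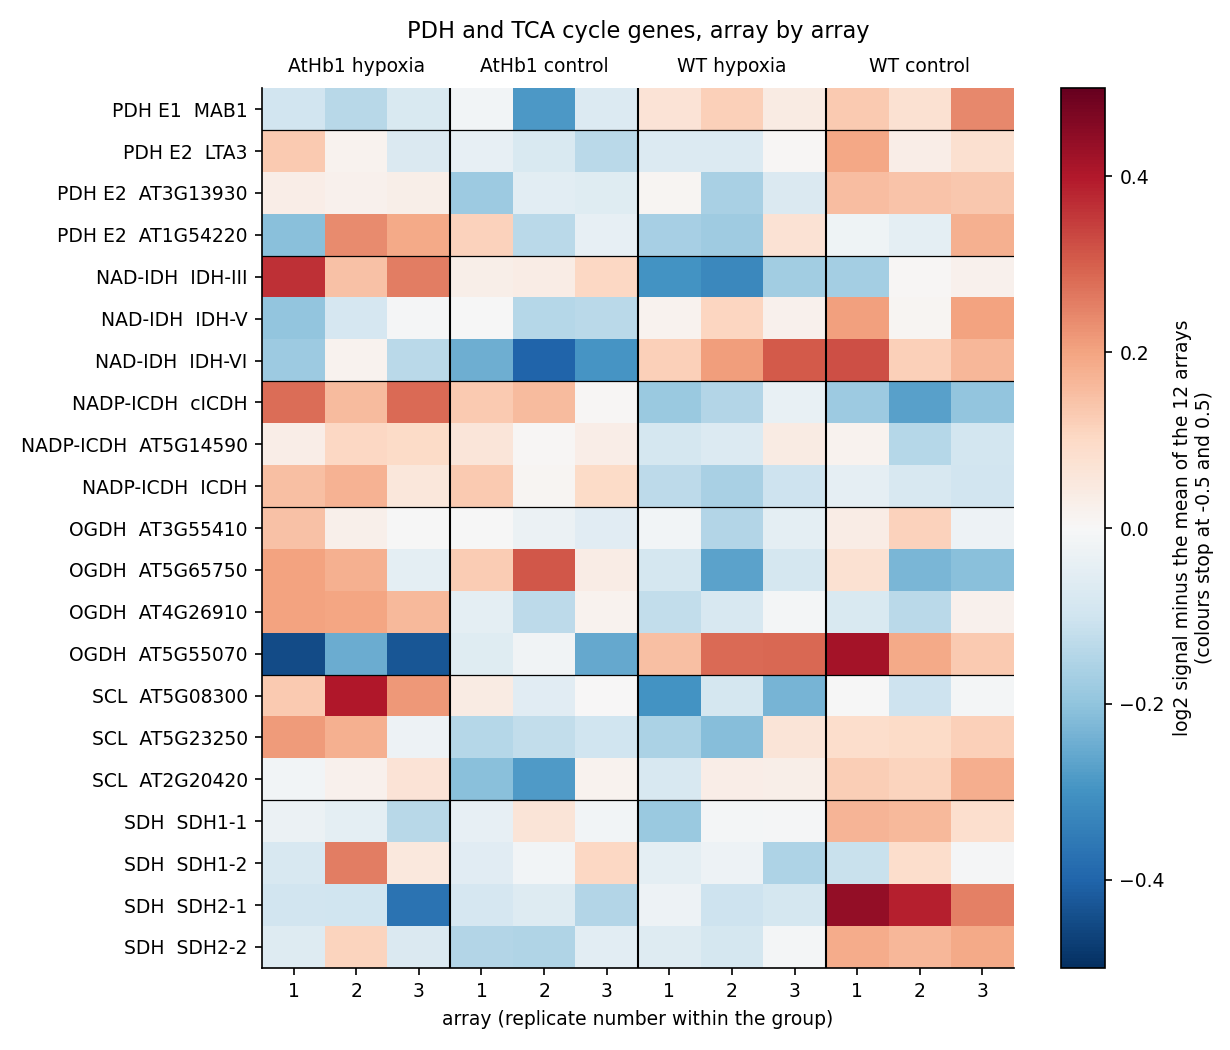
Log2 signal of each of the 21 genes (rows, in pathway order) on each of the 12 arrays (columns, replicates 1 to 3 of each group), as the difference from that gene's mean over the 12 arrays. *SDH2-1* and *SDH2-2* are high on the 3 WT control arrays, while *cICDH* and *IDH-VI* differ by genotype in opposite directions.

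At normal oxygen, AtHb1 siliques had lower signals than WT for genes spread over the pathway, and a single gene was higher. Of the 21 genes, 9 passed the test in AtHb1 control against WT control (background 33.2%), with 8 lower (15.7%) and 1 higher (17.5%). The 8 were *MAB1* and AT3G13930 of PDH, *IDH-V* and *IDH-VI* of the NAD-dependent isocitrate dehydrogenase, AT5G55070 of 2-oxoglutarate dehydrogenase, AT2G20420 of succinyl-CoA ligase, and *SDH2-1* and *SDH2-2* of succinate dehydrogenase, and *cICDH* was the gene that rose. The median log2 fold change was -0.14, beside -0.01 over all probe sets. The 2 groups of arrays did not overlap for 14 of the 21 genes (46.4% of all probe sets), of which 11 were lower in AtHb1 control (22.9%).

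Under hypoxia the same contrast had another make-up. In AtHb1 hypoxia against WT hypoxia, 8 genes passed (38.1%, all probe sets 40.6%). Of these, 6 were higher (28.6%, all probe sets 22.3%) and 2 lower (9.52%, all probe sets 18.3%). The median was 0.12 (all probe sets -0.00). The 6 higher genes were *IDH-III*, *cICDH*, *ICDH*, AT4G26910, AT5G08300 and AT5G23250, and the lower ones were *IDH-VI* and AT5G55070. With each array centred on its own median, the split was 5 higher and 4 lower, since AT5G23250 no longer passed and *MAB1* and *IDH-V* did. Groups did not overlap for 12 genes (50.9%).

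In AtHb1 hypoxia against AtHb1 control, 2 genes passed, both higher (22.1% of all probe sets in either direction, 12.6% higher and 9.51% lower), AT4G26910 and AT5G08300, and the median was 0.09 (all probe sets 0.00). Both calls depended on scaling. After another quantile normalization or centring on array medians neither gene passed, though both changes stayed positive. Under these 2 scalings AT5G55070 passed instead, as lower (0 higher and 1 lower). In WT hypoxia against WT control, 3 genes passed, all lower (15.8% in either direction, 8.7% higher and 7.13% lower), AT3G13930, *SDH2-1* and *SDH2-2*, and the median was -0.11 (all probe sets -0.03). Groups did not overlap for 6 genes in AtHb1 (36.0%) and for 9 in WT (36.2%).

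**Figure D2:**
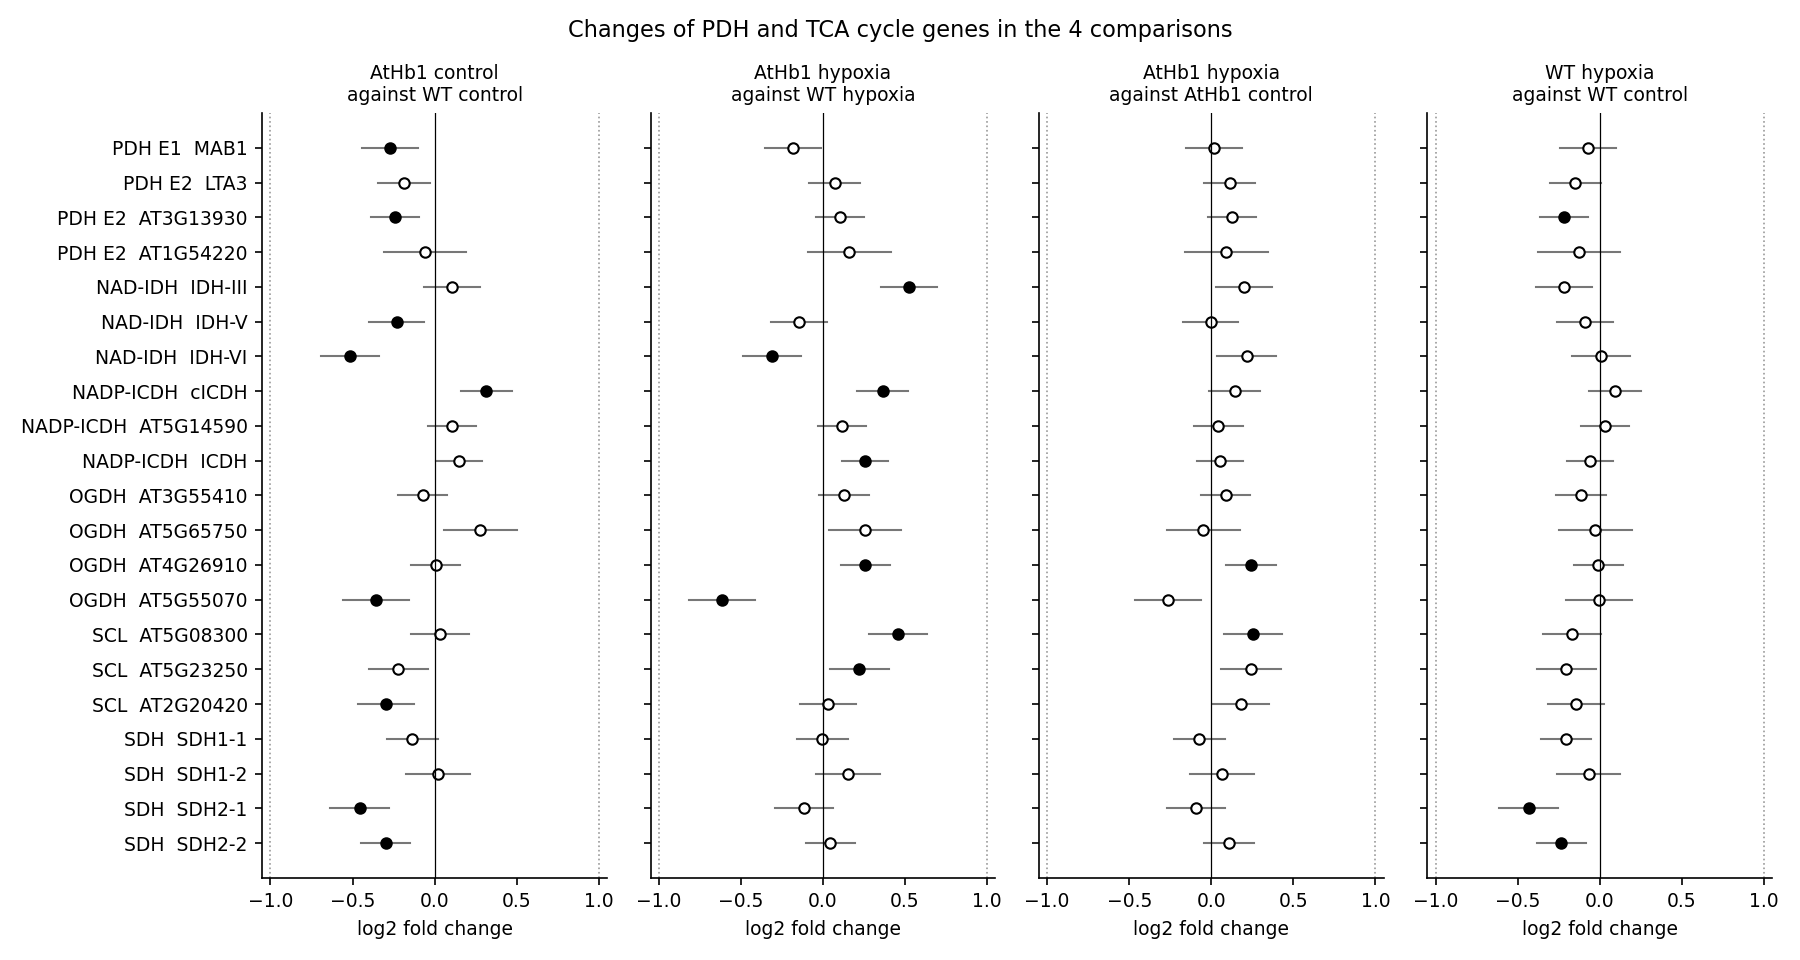
Log2 fold changes of the 21 genes in the 4 pairwise comparisons, with 95% confidence intervals from limma as bars. Filled points passed an adjusted p under 0.05 (9, 8, 2 and 3 genes, from left to right), and the dotted lines at -1 and 1 mark a 2-fold change, which no interval reaches.

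PDH comes first in the pathway. *MAB1* (AT5G50850), the beta subunit of E1, which decarboxylates pyruvate, had log2 signals of 10.75, 10.70 and 10.77 in AtHb1 hypoxia, 10.83, 10.56 and 10.78 in AtHb1 control, 10.91, 10.96 and 10.88 in WT hypoxia, and 10.97, 10.92 and 11.08 in WT control. The AtHb1 arrays lay below the WT arrays at both oxygen levels without overlap. *MAB1* was lower in AtHb1 control than in WT control (log2 fold change -0.27 ± 0.08 SE, adjusted p = 0.0159), whereas its difference under hypoxia was -0.18 ± 0.08 (adjusted p = 0.0819). The call at normal oxygen ended without AtHb1 control replicate 2 or WT control replicate 3, at -0.23 to -0.19.

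The E2 subunit, dihydrolipoamide acetyltransferase, passes the acetyl group to coenzyme A and is represented by *LTA3* (AT3G52200), AT3G13930 and AT1G54220. AT3G13930 read 9.99, 9.98 and 9.99 in AtHb1 hypoxia, 9.78, 9.90 and 9.90 in AtHb1 control, 9.97, 9.79 and 9.89 in WT hypoxia, and 10.11, 10.10 and 10.09 in WT control. The WT control arrays were above all other arrays, and the AtHb1 hypoxia arrays came next. AT3G13930 was lower in AtHb1 control than in WT control (-0.24 ± 0.07, adjusted p = 0.0132) and lower in WT hypoxia than in WT control (-0.22 ± 0.07, adjusted p = 0.0418). Leaving out AtHb1 control replicate 1 ended the first call (-0.20), and leaving out any WT control array, WT hypoxia replicate 2 or 3, or AtHb1 control replicate 3 ended the second (-0.22 to -0.17), as did a fit of the 6 WT arrays alone (adjusted p = 0.0537). *LTA3* (8.31 to 8.64 over the 12 arrays) and AT1G54220 (8.13 to 8.57) passed in no comparison, with adjusted p of 0.0635 for the -0.19 of *LTA3* in AtHb1 control against WT control.

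NAD-dependent isocitrate dehydrogenase forms 2-oxoglutarate in the mitochondrion from catalytic and regulatory subunits, and its subunits moved in opposite directions between genotypes. *IDH-III* (AT4G35650), a regulatory subunit, had log2 signals of 7.47, 7.25 and 7.36 in AtHb1 hypoxia, 7.13, 7.14 and 7.21 in AtHb1 control, 6.81, 6.78 and 6.93 in WT hypoxia, and 6.94, 7.11 and 7.13 in WT control. It was highest in AtHb1 hypoxia and lowest in WT hypoxia, and all 4 groups were free of overlap with their counterparts. *IDH-III* was higher in AtHb1 hypoxia than in WT hypoxia by 0.52 ± 0.08 (adjusted p = 1.64e-04), while at normal oxygen its difference was 0.10 ± 0.08 (adjusted p = 0.355). Its responses to hypoxia were 0.20 ± 0.08 in AtHb1 (adjusted p = 0.0853) and -0.22 ± 0.08 in WT (adjusted p = 0.0801).

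*IDH-VI* (AT3G09810), a catalytic subunit, had log2 signals of 8.68, 8.88 and 8.72 in AtHb1 hypoxia, 8.61, 8.46 and 8.57 in AtHb1 control, 8.98, 9.07 and 9.17 in WT hypoxia, and 9.18, 8.98 and 9.03 in WT control. All 6 AtHb1 arrays were below all 6 WT arrays. The difference was -0.31 ± 0.08 under hypoxia (adjusted p = 0.00853) and -0.52 ± 0.08 at normal oxygen (adjusted p = 2.83e-04), and both calls held when any 1 of the 12 arrays was left out. The other catalytic subunit, *IDH-V* (AT5G03290), had log2 signals of 10.19, 10.30 and 10.38 in AtHb1 hypoxia, 10.39, 10.24 and 10.25 in AtHb1 control, 10.41, 10.49 and 10.41 in WT hypoxia, and 10.59, 10.40 and 10.59 in WT control. Its AtHb1 arrays were again below the WT arrays of the same oxygen level, by -0.15 ± 0.08 under hypoxia (adjusted p = 0.16) and by -0.23 ± 0.08 at normal oxygen (adjusted p = 0.0357). The call at normal oxygen ended without AtHb1 control replicate 2 or 3 or WT control replicate 1 or 3 (-0.21 to -0.20), in a fit of the 6 compared arrays alone (-0.23, adjusted p = 0.0567) and after another quantile normalization (-0.21, adjusted p = 0.0518).

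The NADP-dependent isocitrate dehydrogenases make NADPH outside the cycle proper, and the 3 of them stood higher in AtHb1 on average at both oxygen levels. *cICDH* (AT1G65930), the cytosolic enzyme, had log2 signals of 13.21, 13.09 and 13.22 in AtHb1 hypoxia, 13.06, 13.09 and 12.94 in AtHb1 control, 12.75, 12.79 and 12.90 in WT hypoxia, and 12.75, 12.66 and 12.74 in WT control. Every AtHb1 array was above every WT array. *cICDH* was higher in AtHb1 by 0.36 ± 0.07 under hypoxia (adjusted p = 0.00127) and by 0.31 ± 0.07 at normal oxygen (adjusted p = 0.00401), and both calls held without any 1 array.

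The peroxisomal enzyme *ICDH* (AT1G54340) read 8.76, 8.78 and 8.66 in AtHb1 hypoxia, 8.74, 8.61 and 8.70 in AtHb1 control, 8.48, 8.45 and 8.50 in WT hypoxia, and 8.56, 8.53 and 8.51 in WT control. The genotypes were again apart on all arrays, with a narrow spread inside the WT groups. Under hypoxia *ICDH* was higher in AtHb1 by 0.26 ± 0.07 (adjusted p = 0.00592), and at normal oxygen its difference was 0.15 ± 0.07 (adjusted p = 0.0928). AT5G14590, the organellar enzyme, ranged between 9.60 and 9.85, and its differences of 0.12 ± 0.07 under hypoxia and 0.11 ± 0.07 at normal oxygen missed the threshold (adjusted p = 0.2 and 0.263).

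The 2-oxoglutarate dehydrogenase complex turns 2-oxoglutarate into succinyl-CoA and resembles PDH in its build. Its E2 subunit, dihydrolipoamide succinyltransferase, has a pair of genes, AT4G26910 and AT5G55070, and these moved in opposite directions in AtHb1 hypoxia. AT4G26910 had log2 signals of 9.89, 9.88 and 9.85 in AtHb1 hypoxia, 9.64, 9.55 and 9.70 in AtHb1 control, 9.56, 9.60 and 9.67 in WT hypoxia, and 9.61, 9.55 and 9.71 in WT control. Only the AtHb1 hypoxia arrays stood apart, and the other 3 groups overlapped. AT4G26910 was higher in AtHb1 hypoxia than in WT hypoxia by 0.26 ± 0.07 (adjusted p = 0.00872) and higher than in AtHb1 control by 0.24 ± 0.07 (adjusted p = 0.0242). The first call held without any 1 array, and the second ended without AtHb1 hypoxia replicate 2 or AtHb1 control replicate 1 or 2 (0.20 to 0.24), in a fit of the AtHb1 arrays alone and under the other scalings (0.16 to 0.24).

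AT5G55070 read 9.56, 9.76 and 9.58 in AtHb1 hypoxia, 9.95, 9.99 and 9.76 in AtHb1 control, 10.16, 10.30 and 10.30 in WT hypoxia, and 10.43, 10.20 and 10.14 in WT control. All AtHb1 arrays were below all WT arrays, and the WT groups overlapped. AT5G55070 was lower in AtHb1 by -0.62 ± 0.09 under hypoxia (adjusted p = 1.54e-04), the widest change of the 21 genes in any pairwise comparison, and by -0.36 ± 0.09 at normal oxygen (adjusted p = 0.00839), and both calls held without any 1 array. Its response to hypoxia was -0.26 ± 0.09 in AtHb1 (adjusted p = 0.0564) and -0.01 ± 0.09 in WT. The E1 genes, which bind 2-oxoglutarate, passed in no comparison. AT3G55410 ranged between 9.21 and 9.51 and AT5G65750 between 8.64 and 9.22. AT5G65750 had differences of 0.26 ± 0.10 under hypoxia (adjusted p = 0.0617) and 0.28 ± 0.10 at normal oxygen (adjusted p = 0.0517) between AtHb1 and WT.

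**Figure D3:**
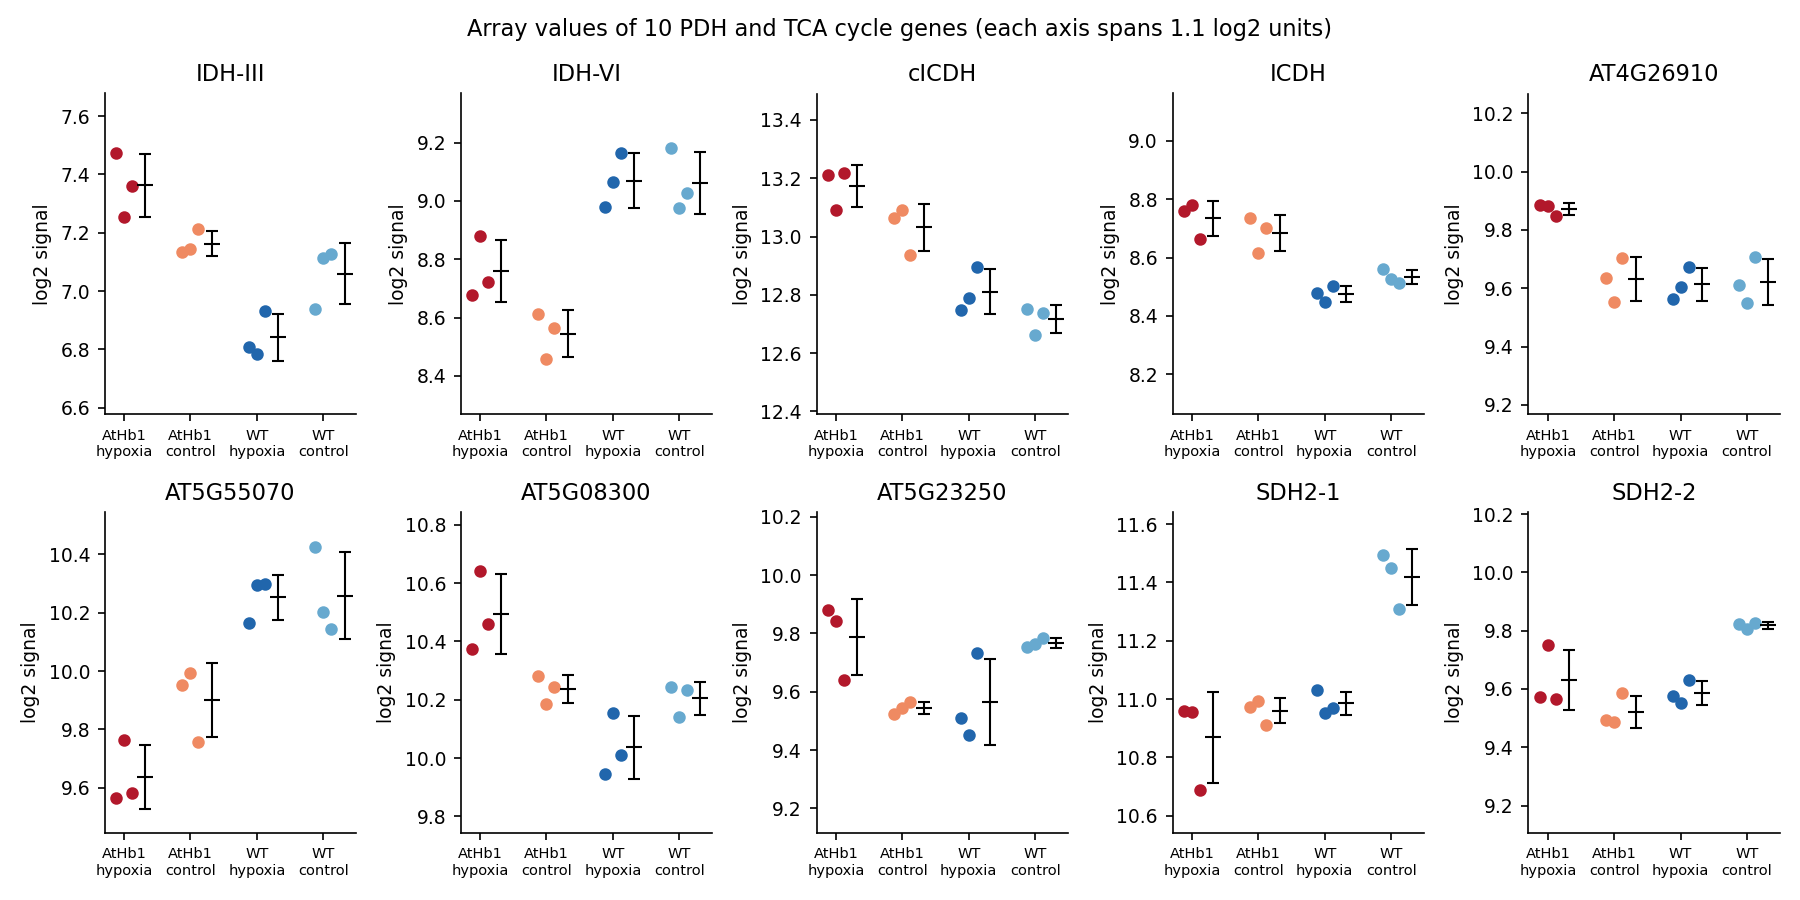
Log2 signal of 10 genes on each array (points) in the 4 groups, with the group mean and SD (n = 3) in black beside the points. Each panel spans 1.1 log2 units, levels of different genes are not comparable, and the AtHb1 arrays lie wholly above the WT arrays for *cICDH* and *ICDH* and wholly below them for *IDH-VI* and AT5G55070.

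Succinyl-CoA ligase frees succinate and makes ATP or GTP at the substrate level. Both of its alpha subunit genes had their highest group mean in AtHb1 hypoxia. For AT5G23250 that mean (9.79) lay close to the mean of WT control (9.77). AT5G08300 had log2 signals of 10.37, 10.64 and 10.46 in AtHb1 hypoxia, 10.28, 10.19 and 10.24 in AtHb1 control, 9.94, 10.15 and 10.01 in WT hypoxia, and 10.24, 10.14 and 10.23 in WT control. The AtHb1 hypoxia arrays were above all others, and replicate 2 was the highest of them. It was higher in AtHb1 hypoxia than in WT hypoxia by 0.46 ± 0.08 (adjusted p = 5.94e-04), a call that held without any 1 array. Against AtHb1 control it was higher by 0.25 ± 0.08 (adjusted p = 0.0399), which ended without AtHb1 hypoxia replicate 2 or 3, any AtHb1 control array, WT hypoxia replicate 3 or WT control replicate 1 (0.18 to 0.28), in a fit of the AtHb1 arrays alone, with array weights and under the other scalings (0.18 to 0.26).

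AT5G23250 read 9.88, 9.84 and 9.64 in AtHb1 hypoxia, 9.52, 9.54 and 9.57 in AtHb1 control, 9.51, 9.45 and 9.73 in WT hypoxia, and 9.75, 9.76 and 9.79 in WT control. Here AtHb1 hypoxia and WT control were the high groups, and WT hypoxia replicate 3 overlapped with AtHb1 hypoxia. Its difference between AtHb1 hypoxia and WT hypoxia, 0.22 ± 0.08, lay at the threshold (adjusted p = 0.0476) and held only without AtHb1 hypoxia replicate 3 or WT hypoxia replicate 3, being lost without any 1 of the other 10 arrays (0.17 to 0.22), in a fit of the 6 compared arrays alone and under the other scalings (0.15 to 0.22). The beta subunit gene AT2G20420 read 10.45, 10.48 and 10.53 in AtHb1 hypoxia, 10.25, 10.18 and 10.48 in AtHb1 control, 10.38, 10.50 and 10.49 in WT hypoxia, and 10.59, 10.57 and 10.64 in WT control. WT control was highest, and AT2G20420 was lower in AtHb1 control than in WT control by -0.30 ± 0.08 (adjusted p = 0.01), a call that ended without AtHb1 control replicate 2 (-0.23).

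Succinate dehydrogenase oxidises succinate with a flavoprotein (SDH1) and passes the electrons through an iron-sulfur protein (SDH2). Both *SDH2* genes were highest in WT control. *SDH2-1* (AT3G27380) had log2 signals of 10.96, 10.96 and 10.69 in AtHb1 hypoxia, 10.97, 10.99 and 10.91 in AtHb1 control, 11.03, 10.95 and 10.97 in WT hypoxia, and 11.50, 11.45 and 11.31 in WT control. The 3 WT control arrays lay above the other 9 arrays, which overlapped. *SDH2-1* was lower in AtHb1 control than in WT control by -0.46 ± 0.08 (adjusted p = 7.13e-04) and lower in WT hypoxia than in WT control by -0.43 ± 0.08 (adjusted p = 0.00213), both without exception when 1 array was left out.

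A second, dim probe set of *SDH2-1*, with a mean below 6 in each group, did not repeat these calls. It had log2 fold changes of -0.17 in AtHb1 control against WT control (adjusted p = 0.196) and -0.22 in WT hypoxia against WT control (adjusted p = 0.155), and it passed as lower in AtHb1 hypoxia against WT hypoxia (-0.27, adjusted p = 0.0384) and against AtHb1 control (-0.31, adjusted p = 0.0327). *SDH2-2* (AT5G40650) read 9.57, 9.75 and 9.57 in AtHb1 hypoxia, 9.49, 9.49 and 9.59 in AtHb1 control, 9.57, 9.55 and 9.63 in WT hypoxia, and 9.82, 9.81 and 9.83 in WT control. As with *SDH2-1*, WT control was above all other arrays. *SDH2-2* was lower in AtHb1 control than in WT control by -0.30 ± 0.07 (adjusted p = 0.00445), which held without any 1 array, and lower in WT hypoxia than in WT control by -0.23 ± 0.07 (adjusted p = 0.0346), which ended without any 1 of the 6 WT arrays (-0.26 to -0.22). The flavoprotein gene *SDH1-1* (AT5G66760) ranged between 10.94 and 11.30 and passed in no comparison, with -0.21 ± 0.07 in WT hypoxia against WT control (adjusted p = 0.0711). *SDH1-2* (AT2G18450) was dim, at 4.54 to 4.95 on all arrays.

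Other genes were high in WT control together with the *SDH2* genes. For pollen, 3 of 4 listed loci had a probe set, AT3G28750, *PGA4* and *VGD1*, and that of *VGD1* is shared with another gene. These markers were lower in AtHb1 control than in WT control (3 of 3, all probe sets 15.7%, log2 fold changes -1.42 to -0.94). They were also lower in WT hypoxia than in WT control (3 of 3, all probe sets 7.13%, log2 fold changes -1.67 to -1.54). Their summed linear signal averaged 486 (353 to 643 over the arrays) in AtHb1 hypoxia, 531 (424 to 620) in AtHb1 control, 387 (336 to 427) in WT hypoxia and 1182 (1152 to 1198) in WT control. None of the 3 was dim, and the part of pollen RNA in the lower *SDH2* and AT3G13930 signals was not tested.

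Nuclear genes for other mitochondrial proteins gave a related picture. Of 5 probe sets (6 of 12 listed loci), 4 were lower in AtHb1 control than in WT control (all probe sets 15.7%). In WT hypoxia against WT control, 3 were lower (all probe sets 7.13%). AT3G27240, for cytochrome c1 of complex III, had log2 fold changes of -0.74 (adjusted p = 1.34e-05) and -0.42 (adjusted p = 0.00231). AT5G40810 had -0.61 (adjusted p = 5.92e-05) and -0.21 (adjusted p = 0.106) in the same 2 comparisons. In AtHb1 hypoxia against WT hypoxia, 1 of the 5 probe sets was higher (all probe sets 22.3%) and 1 was lower (all probe sets 18.3%). The summed linear signal of the list averaged 8914 (8730 to 9022) in AtHb1 hypoxia, 8710 (8350 to 9155) in AtHb1 control, 9238 (9215 to 9277) in WT hypoxia and 10656 (10463 to 10806) in WT control, with WT control above all other arrays. Whether mitochondrial content had a part in the *SDH2* results was not tested. For maturing seeds, which had 0 of 9 listed loci with a named probe set, 5 storage protein and oleosin genes were added after the annotation was seen, and their summed signal averaged 43515 (34755 to 52403) in AtHb1 hypoxia, 54182 (52622 to 57214) in AtHb1 control, 54631 (53040 to 55704) in WT hypoxia and 39679 (33867 to 43293) in WT control. Of these 5, 4 were higher in AtHb1 control than in WT control (all probe sets 17.5%) and 4 were higher in WT hypoxia than in WT control (8.7%). By contrast, 3 were lower in AtHb1 hypoxia than in WT hypoxia (18.3%) and 2 were lower in AtHb1 hypoxia than in AtHb1 control (9.51%). Their part in the changes of the 21 genes was not tested. The only green tissue gene with a probe set (1 of 8), *RCA*, which encodes Rubisco activase, was lower in AtHb1 by -0.55 under hypoxia and by -0.35 at normal oxygen, and 0 of 3 root loci had a named probe set.

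**Figure D4:**
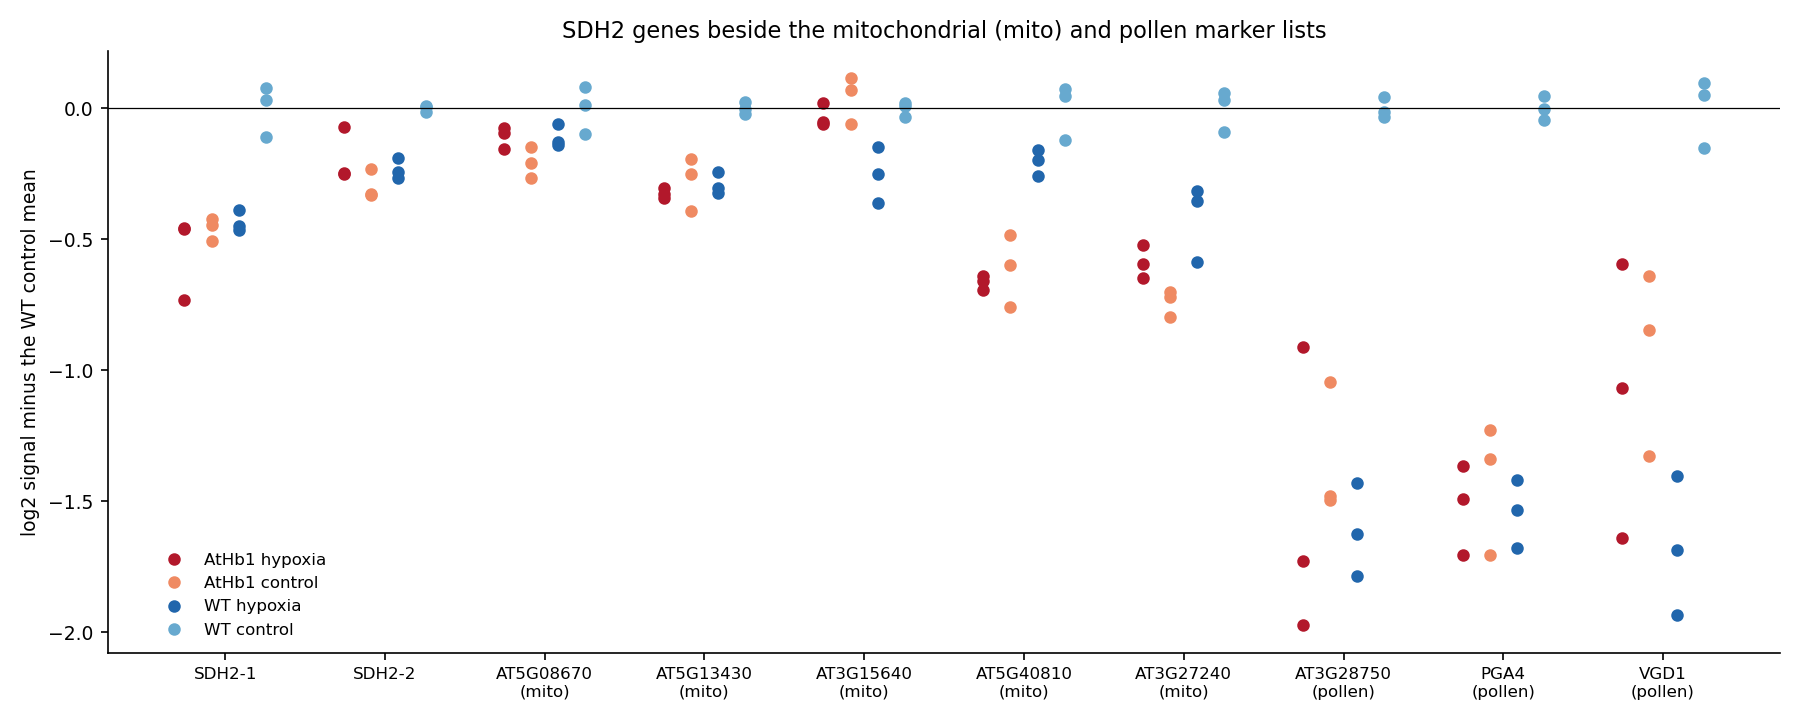
Log2 signal minus the WT control mean for *SDH2-1* and *SDH2-2* beside the 5 mitochondrial and 3 pollen probe sets, with 1 point for each array of the 4 groups. *SDH2-1*, *SDH2-2*, the pollen markers and the mitochondrial AT5G13430, AT5G40810 and AT3G27240 have all 9 other arrays below the 3 WT control arrays. For the mitochondrial AT5G08670 and AT3G15640 the WT control arrays overlap with others.

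The responses to hypoxia differed between genotypes for 5 genes. The interaction, AtHb1 hypoxia minus AtHb1 control less WT hypoxia minus WT control, passed for AT3G13930, *IDH-III*, AT5G08300, AT5G23250 and *SDH2-2*, all with a positive sign (12.3% of all probe sets in either direction, 6.98% positive and 5.3% negative). A positive sign means that AtHb1 rose more, or fell less, than WT. Of the 21 genes, 19 had a positive interaction (53.9% of all probe sets), and the median was 0.21 (all probe sets 0.02). Another quantile normalization or median centring left 18 positive.

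For AT5G23250 the interaction was 0.44 ± 0.12 (adjusted p = 0.0257), made of 0.24 ± 0.08 in AtHb1 (adjusted p = 0.053) and -0.20 ± 0.08 in WT (adjusted p = 0.126). AT5G08300 had 0.42 ± 0.12 (adjusted p = 0.0291), with responses of 0.25 ± 0.08 in AtHb1 and -0.17 ± 0.08 in WT (adjusted p = 0.196). *IDH-III* had 0.42 ± 0.11 (adjusted p = 0.0263). In each of these 3 genes the mean response was positive in AtHb1 and negative in WT, and of the 6 responses only that of AT5G08300 in AtHb1 passed the test. AT3G13930 had 0.35 ± 0.10 (adjusted p = 0.0307), with 0.13 ± 0.07 in AtHb1 (adjusted p = 0.194), and *SDH2-2* had 0.34 ± 0.10 (adjusted p = 0.0366), with 0.11 ± 0.07 in AtHb1 (adjusted p = 0.285). Both had fallen in WT, as given above.

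No interaction call held in all 12 fits that left out 1 array. Those of AT3G13930 (0.31) and *SDH2-2* (0.30) also ended after another quantile normalization, and that of *IDH-III* with a trended and robust eBayes (adjusted p = 0.0521). That of AT5G23250 ended without AtHb1 hypoxia replicate 2, AtHb1 control replicate 1 or 2, or WT hypoxia replicate 1 or 2 (0.39 to 0.44). For AT5G08300 the arrays were AtHb1 hypoxia replicate 2, AtHb1 control replicate 2, WT hypoxia replicate 1 or 3, and WT control replicate 1 or 3 (0.35 to 0.41), and for *IDH-III* they were AtHb1 control replicate 1 or 2, WT hypoxia replicate 1 or 2, and WT control replicate 2 or 3 (0.38 to 0.41). AT3G13930 lost its call without AtHb1 hypoxia replicate 3, AtHb1 control replicate 1, WT hypoxia replicate 2 or 3, or any WT control array (0.30 to 0.35), and *SDH2-2* without AtHb1 hypoxia replicate 2, AtHb1 control replicate 1 or 2, WT hypoxia replicate 1 or 2, or any WT control array (0.28 to 0.35). The 3 pollen markers had positive interactions too (1.41 to 1.51, 3 of 3 past the test, all probe sets 6.98%), as did AT3G27240 of the mitochondrial list (0.57, 1 of 5). Of the 5 storage genes, 4 had negative ones past the test (all probe sets 5.3%). Their part in the interaction was not tested.

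**Figure D5:**
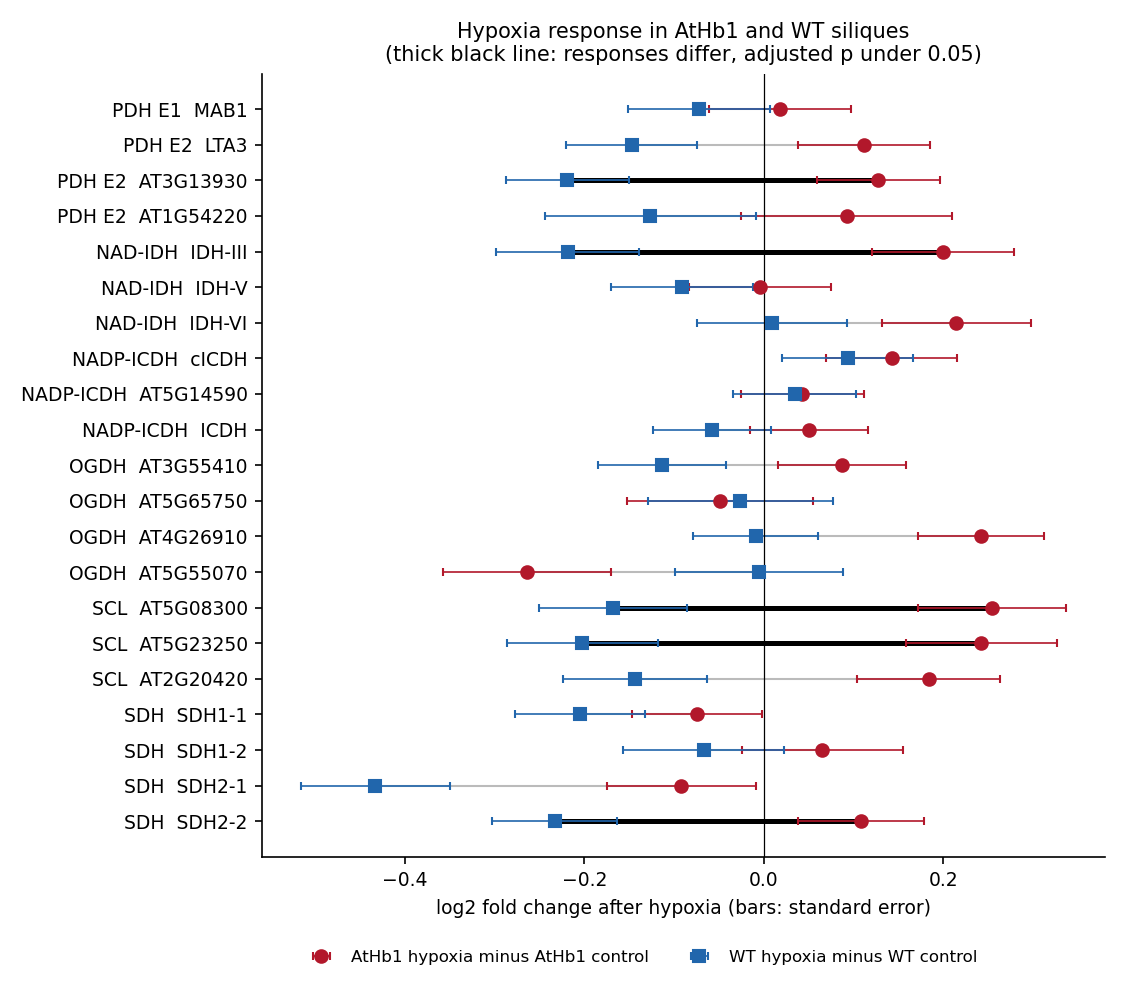
Log2 fold change after hypoxia of each of the 21 genes in AtHb1 (circles) and in WT (squares), with standard errors as bars. The AtHb1 value lies right of the WT value for 19 of the 21 genes, and thick black lines join the 5 pairs whose difference passed the test.

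Genes next to the pathway, from a list of 24 loci with 6 measured by 5 probe sets, moved little as well. AT5G19760, a mitochondrial carrier of dicarboxylates and tricarboxylates, was lower in AtHb1 control than in WT control by -0.51 (adjusted p = 4.60e-04) and lower in WT hypoxia than in WT control by -0.34 (adjusted p = 0.0153), with an interaction of 0.43 (adjusted p = 0.0348). It had log2 signals of 12.20, 11.91 and 12.16 in AtHb1 hypoxia, 12.08, 11.84 and 12.06 in AtHb1 control, 12.20, 12.13 and 12.16 in WT hypoxia, and 12.56, 12.45 and 12.51 in WT control, so it too was highest in WT control. The probe set shared by *SDH3-1* and *SDH3-2*, membrane anchors of succinate dehydrogenase, was lower in AtHb1 control than in WT control by -0.21 (adjusted p = 0.0386). Of the plastid PDH, which feeds fatty acid synthesis, the E1 beta gene AT2G34590 was higher in AtHb1 hypoxia than in WT hypoxia by 0.24 (adjusted p = 0.0328), and the E3 gene AT4G16155 was higher in AtHb1 hypoxia than in AtHb1 control by 0.37 (adjusted p = 0.019). AT4G22310, of the mitochondrial pyruvate carrier family, passed in no comparison.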

How the data were processed

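RNA of pooled siliques was hybridised to 12 ATH1 arrays, and groups and replicate numbers came from the sample labels. The authors processed scans with MAS5 and made the deposited log2 signals with RMA, which corrects background, applies quantile normalization and summarises the probes of a set; versions are not given in the sources used here. Values were used as deposited. Of 22810 probe sets, 64 controls were set apart and 22746 tested, of which the annotation names 1 gene for 13513 and several for 503. A locus with several probe sets was represented by the one with the highest mean. limma 3.58.1 in R 4.3.3 (1 mean per group, contrasts, eBayes over all 12 arrays) gave log2 fold changes, SEs and p-values, with Benjamini-Hochberg adjustment across the tested probe sets, separately for 5 comparisons. A gene changed, rose or fell at an adjusted p under 0.05, and the stricter call asked for a 2-fold change too. Probe sets with a mean below 6 in each group were dim. The number of arrays limits precision, and an exact permutation test of 3 against 3 arrays cannot go below p = 0.1. Array values and full statistics were given for the 6 largest changes past the test in each comparison, for each interaction past it and for isoform partners. The genes and lists were chosen with earlier results of these data known. Alternatives were other fits, scalings, filters, array weights, a replicate block and leaving out each array. The code was tested on simulated data.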

Additional observations from a re-analysis of the deposited data

Results flagged for a closer look

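The 5 genes whose response to hypoxia differed between AtHb1 and WT by the test of the interaction (limma, adjusted over all probe sets) are listed with their values. The interaction was 0.44 for AT5G23250 and 0.42 for AT5G08300, the alpha subunit genes of succinyl-CoA ligase, and 0.42 for *IDH-III*, a regulatory subunit of isocitrate dehydrogenase. It was 0.35 for AT3G13930, a PDH E2 gene, and 0.34 for *SDH2-2*, an iron-sulfur subunit gene of succinate dehydrogenase. None of the 5 passed an adjusted p under 0.01, and each call ended without some single array. Groups of 3 arrays are too small for a check of single arrays that stand apart.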

How the results depend on the processing

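No called change and no median over the genes changed sign under an alternative run, and no gene reached the 2-fold call. Small changes that had not passed did cross 0: with median centring 5, 12, 12 and 1 of the 21 log2 fold changes were positive in AtHb1 control against WT control, AtHb1 hypoxia against WT hypoxia, AtHb1 hypoxia against AtHb1 control and WT hypoxia against WT control, in place of 8, 15, 16 and 3. Without centring, 47.3%, 49.5%, 50.6% and 42.8% of all probe sets were positive in that order. Apart from the replicate block below, these counts of calls moved by more than 1.5 times. At an adjusted p under 0.01, 5 genes passed in AtHb1 control against WT control, 0 in AtHb1 hypoxia against AtHb1 control, 1 in WT hypoxia against WT control and 0 for the interaction. At an unadjusted p under 0.05, 7, 6 and 9 passed in the last 3 of these. In AtHb1 hypoxia against AtHb1 control, 0 passed in a fit of those arrays alone, 4 with a trended and robust eBayes, and 1 each with array weights, another quantile normalization and median centring, and the median fell to 0.014 with centring. In WT hypoxia against WT control, 7 passed with array weights and 6 with median centring. For the interaction, 3 passed after another quantile normalization, and the fit of compared arrays alone cannot give it. No share of all probe sets is given for these runs, for those with 1 array left out or for the replicate block. Their counts thus cannot be told apart from a shift in calls over the whole array. The causes were not tested.

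With 1 array left out, counts ranged from 6 to 12 in AtHb1 control against WT control, 7 to 9 in AtHb1 hypoxia against WT hypoxia, 0 to 3 in AtHb1 hypoxia against AtHb1 control, 1 to 3 in WT hypoxia against WT control, and 1 to 6 for the interaction. The 0 was reached without AtHb1 control replicate 1 or 2, the 1 in WT without WT control replicate 2 or 3 or WT hypoxia replicate 2, and the 1 of the interaction without AtHb1 control replicate 1 or 2, WT hypoxia replicate 1 or 2, or WT control replicate 3. Medians ranged from -0.17 to -0.12, 0.08 to 0.12, 0.05 to 0.12, -0.16 to -0.07 and 0.15 to 0.25 in that order. Of the single calls, 252 of 324 held with 1 array left out and 217 of 238 under the other alternatives.

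Same-numbered arrays of different groups had deviations that correlated at -0.13 to 0.12, and the numbers were not taken as pairs. For AtHb1 hypoxia and AtHb1 control all 3 correlations were positive (0.06 to 0.12), beside -0.22 to 0.14 for different numbers. Signs were mixed in every other pair of groups. In no pair of groups did every array correlate best with its own number. The labels do not say whether the numbers mark shared treatment runs. With a replicate block, 10, 7, 1, 1 and 4 genes passed in the same order of comparisons. The block ended the calls of AT5G23250 in AtHb1 hypoxia against WT hypoxia (adjusted p = 0.0668), AT5G08300 in AtHb1 hypoxia against AtHb1 control (0.0509), *SDH2-2* and AT3G13930 in WT hypoxia against WT control (0.0513 and 0.0625) and the interaction of *SDH2-2* (0.053).

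Dim probe sets limit *SDH1-2* and the second probe set of *SDH2-1* to signals near background.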
